A study of Mus musculus with 17 samples.

Results

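The genes described here encode antimicrobial and acute-phase proteins, and they are the 9 rows of the deposited expression table whose symbol is Lcn2, Slpi, Stfa3, Saa3, Hp, Ptx3, S100a8, S100a9 or Camp, of 21683 rows in all. All 9 passed the filter on low values (at least 1 TPM in at least 5 libraries, where TPM is a transcript abundance corrected for length and library total), which 10451 rows passed, but Ptx3 passed it only through its Tat-treated libraries. RNA-Seq was performed in 17 libraries of mouse peritoneal macrophages that had been elicited with 3% thioglycollate, allowed to attach for 4 h and then cultured for 12 h with PBS or with 100 nM recombinant HIV protein Tat, the viral transactivator. Macrophages of IKKβF/F mice received PBS (F/F PBS, n = 6) or Tat (F/F Tat, n = 6), and those of IKKβΔMye mice received Tat (ΔMye Tat, n = 5). Mice of all 3 groups were 8-week-old males on a C57BL/6 background and carried loxP-flanked IKKβ alleles. Only the IKKβΔMye mice also carried a heterozygous LysM-Cre knock-in, a Cre recombinase inserted into the lysozyme gene Lyz2 and therefore expressed in myeloid cells. A PBS-treated ΔMye group was not analysed here, so a response to Tat within the deleted genotype could not be computed, and ΔMye Tat was compared with F/F Tat and with F/F PBS.

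The acute-phase response is the change in secreted proteins that follows infection or injury, and IL-6, IL-1 and TNF are its known inducers. The liver makes most of the plasma proteins involved, but macrophages and other cells at the inflamed site make some of them as well, Saa3 and Ptx3 among them. Antimicrobial proteins of phagocytes withhold iron, zinc and manganese from bacteria, damage bacterial membranes or restrain the proteases that phagocytes release. IKKβ is the kinase that marks IκB proteins for degradation and so frees NF-κB, and NF-κB, C/EBP and STAT3 factors are known to act on many genes of this kind.

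The targeted gene Ikbkb, which encodes IKKβ, was measured at 24.5 to 30.1 TPM in F/F PBS and at 21.6 to 25.4 TPM in F/F Tat, whereas ΔMye Tat gave 12.8 to 19.9 TPM. The ΔMye Tat libraries all lay below the F/F Tat libraries (log2 difference -0.51, adjusted p = 4.51e-05 in limma), and the transcript was still present at 70.7% of the F/F Tat mean. Gene-level TPM also take in reads outside a deleted exon. The 8 macrophage markers all had means above 1 TPM and summed to 4043 to 4397 TPM in F/F PBS, 3828 to 4055 in F/F Tat and 4148 to 4268 in the deleted genotype. Single markers moved apart within that sum. Csf1r had means of 381, 64.0 and 104 TPM in F/F PBS, F/F Tat and ΔMye Tat, and Cd68 had 2596, 1744 and 1886 TPM. Cd14 went the other way (203, 842 and 1009 TPM), as did Fcgr1 (113, 300.1 and 164 TPM). The depth of the libraries is unknown from TPM. Across all tested genes the median log2 difference was -0.65 with Tat in F/F macrophages. It was 0.22 for ΔMye Tat minus F/F Tat and -0.43 for ΔMye Tat minus F/F PBS. Median-ratio scaling between libraries brought these medians to -0.03, 0.01 and -0.01. Differences are given on TPM as deposited, followed where it matters by the value after this scaling. A gene was called when its adjusted p was under 0.01 and its fold change over 3.

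Since TPM are corrected for transcript length, the levels of different genes can be set side by side. Saa3 had the highest level of the 9 genes in each group and Slpi the next highest. Among all tested genes, the mean of Saa3 ranked 22 in F/F PBS, 9 in F/F with Tat and 5 in ΔMye Tat, that of Slpi 171, 30 and 135, and that of Lcn2 712, 130 and 173. S100a8, Hp, Stfa3 and, with Tat, Ptx3 had group means between 5.68 and 91.4 TPM, and S100a9 and Camp lay near the filter in every group. Together the 9 genes made up 0.545% of the listed TPM in F/F PBS, 1.52% in F/F with Tat and 1.34% in ΔMye Tat, and Saa3 alone was 78.5%, 66.1% and 82.1% of that sum.

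**Figure D1:**
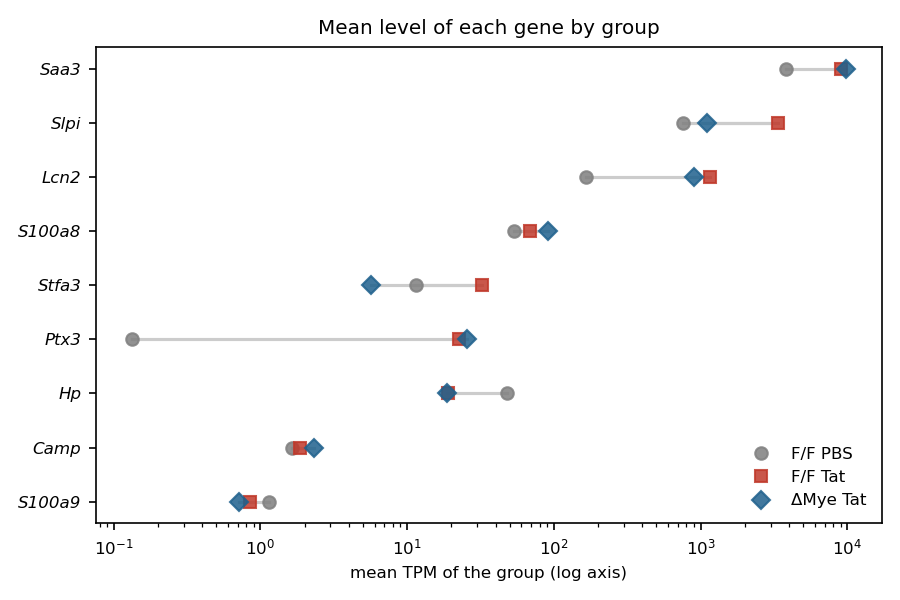
Mean TPM of each of the 9 genes (rows) in the 3 groups, on a log axis, with a line joining the 3 group means of a gene. Saa3 lay at the top in every group, Ptx3 spanned the widest range (0.132 TPM in F/F PBS to 25.7 TPM in ΔMye Tat), and S100a9 and Camp stayed between 0.716 and 2.31 TPM.

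The sequence upstream of the transcription start was found in RefSeq (GRCm38.p6) for 8 of the 9 genes. Within 250 bases upstream, on both strands, 3 types of site were searched for: an NF-κB type (GGG and CC with any 5 bases between them), a C/EBP type (TTGCNNAA) and a STAT type (TTCNNNGAA). The NF-κB type was found in 1 of the 8 (Lcn2, 102 to 93 bases before the start), against 45.8% of 32817 promoters. The C/EBP type was found in 5 of the 8 (Lcn2, Slpi, Ptx3, S100a9 and Saa3), against 9.57% of all promoters. The STAT type, which 7.02% of all promoters held, was found in none of the 8. Such matches describe letters and not occupied sites, and a window without a match says nothing about a factor. The stretches printed below belong to the 4 genes with the largest Tat differences that have such a match, and to Stfa3, which carried none of the 3 types, and all are given 5′ to 3′ on the strand of the gene with the NF-κB type match (Lcn2) or the C/EBP type match (Slpi, Ptx3 and Saa3) in capitals.
Lcn2, chr2:32387798-32387850, minus strand: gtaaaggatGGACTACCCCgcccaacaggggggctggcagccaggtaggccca
Slpi, chr2:164356508-164356757, minus strand: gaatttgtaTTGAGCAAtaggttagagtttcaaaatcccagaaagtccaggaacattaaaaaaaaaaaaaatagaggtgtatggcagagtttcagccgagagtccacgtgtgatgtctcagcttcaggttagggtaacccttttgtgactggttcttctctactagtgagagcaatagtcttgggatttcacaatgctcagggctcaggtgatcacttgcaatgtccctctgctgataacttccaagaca
Ptx3, chr3:66219787-66219886, plus strand: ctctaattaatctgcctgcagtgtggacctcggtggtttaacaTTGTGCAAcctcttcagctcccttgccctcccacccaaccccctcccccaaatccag
Saa3, chr7:46715701-46715826, minus strand: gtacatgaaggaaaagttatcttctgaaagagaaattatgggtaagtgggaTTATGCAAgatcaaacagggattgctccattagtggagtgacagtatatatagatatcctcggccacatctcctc
Stfa3, chr16:36455393-36455542, minus strand: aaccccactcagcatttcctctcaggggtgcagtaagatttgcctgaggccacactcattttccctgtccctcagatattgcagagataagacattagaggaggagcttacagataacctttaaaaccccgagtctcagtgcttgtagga
The Lcn2 and Slpi stretches lie within the annotated span of their own gene, upstream of a RefSeq start but downstream of the farthest annotated one, and all 5 stretches lie outside annotated exons. The second Lcn2 match, of the C/EBP type, lay 216 to 209 bases before the start, outside the printed stretch. The Slpi match lay 241 to 234 bases, the Ptx3 match 57 to 50 bases and the Saa3 match 99 to 92 bases before the start.

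Of the 9 genes, 3 were called higher with Tat (Lcn2, Slpi and Ptx3) and 0 lower, where 5.21% of all tested genes were called higher and 19.4% lower. By adjusted p alone, 7 of the 9 passed (84.6% of all tested genes). Of these, 6 were higher, as were 1774 of the 10451 tested genes, and 1 was lower (67.6% of all tested genes). After median-ratio scaling the 9 again gave 6 higher and 1 lower by adjusted p, whereas over all tested genes 37.1% were higher and 38.1% lower. The F/F Tat and F/F PBS libraries did not overlap for 7 of the 9, against 77.6% of all tested genes. The median log2 difference of the 9 was 1.26, against -0.65 over all tested genes. Without Ptx3, which passed the filter through its Tat-treated libraries alone, 2 of 8 were called higher and the median was 0.80. After median-ratio scaling Saa3 and Stfa3 were called higher too, which made 5 called (8.51% of all tested genes were called higher after scaling and 9.76% lower). These counts describe a list chosen with earlier results of the same libraries known.

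**Figure D2:**
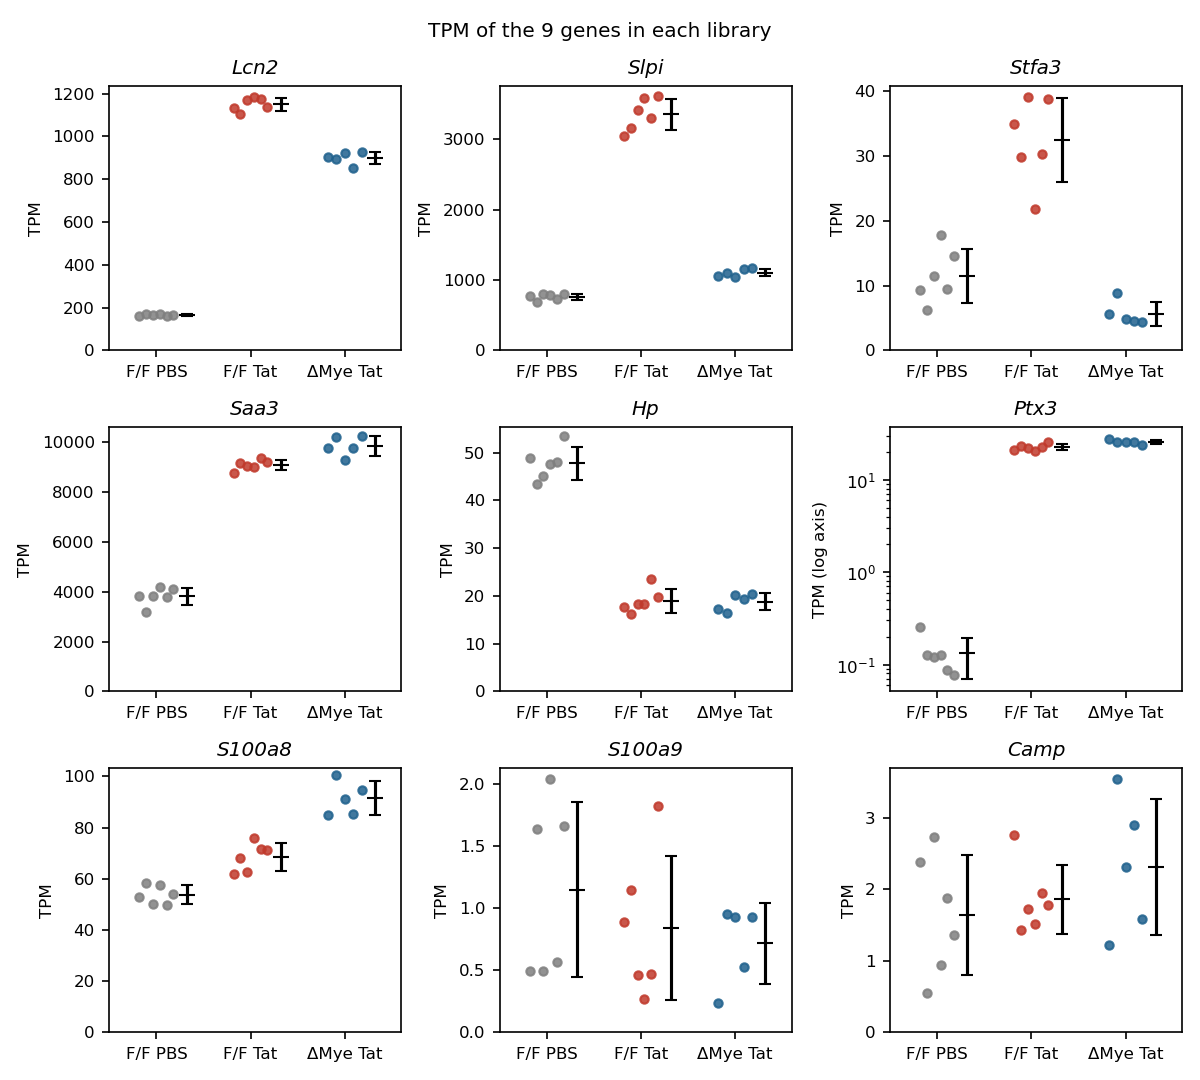
TPM of each of the 9 genes in every library, 1 panel a gene, with each group's mean and SD beside its points; the Ptx3 panel has a log axis and the others start at 0. All groups were separated from each other for Lcn2, Slpi and S100a8, F/F PBS lay apart from both Tat groups for Saa3, Hp and Ptx3, and the groups overlapped for S100a9 and Camp.

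Lcn2 encodes lipocalin 2, which binds bacterial siderophores and so withholds iron. In the reference annotation (GRCm38) it lies at chr2:32384633-32388252 on the minus strand. In F/F PBS it was measured at 160 to 172 TPM (median 165), and in F/F Tat at 1106 to 1184 TPM (median 1152). In ΔMye Tat it was measured at 906, 893, 921, 852 and 927 TPM in the 5 libraries. Every F/F Tat library was thus above every ΔMye Tat library, and every ΔMye Tat library was far above F/F PBS. The mean rose 6.93-fold with Tat in F/F macrophages, from 166 ± 4.99 to 1151 ± 30.6 TPM (SD, n = 6 each; log2 difference 2.79 ± 0.03 SE, adjusted p = 1.92e-24 in limma). ΔMye Tat reached 899 ± 29.9 TPM, 78.2% of the F/F Tat mean. That difference passed the adjusted p but not the fold threshold (log2 -0.36, 95% interval -0.42 to -0.30, adjusted p = 4.51e-09), and against F/F PBS ΔMye Tat was called higher (log2 2.44, adjusted p = 4.98e-23).

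Slpi and Stfa3 encode protease inhibitors. Slpi was called higher with Tat, Stfa3 was higher by adjusted p, and both were called lower in ΔMye Tat than in F/F Tat. Slpi, the secretory leukocyte protease inhibitor, acts on neutrophil elastase and cathepsin G and also has antimicrobial activity. It lies at chr2:164354070-164389095 on the minus strand. F/F PBS libraries gave 693 to 801 TPM (median 781) and F/F Tat libraries 3054 to 3613 TPM (median 3359). Values in ΔMye Tat were 1061, 1101, 1046, 1158 and 1168 TPM. The groups did not overlap, and ΔMye Tat stood closer to F/F PBS than to F/F Tat. The mean rose 4.39-fold with Tat, from 764 ± 43.6 to 3355 ± 225 TPM (log2 2.13 ± 0.05 SE, adjusted p = 4.11e-19 in limma). In ΔMye Tat it was 1107 ± 54.9 TPM (n = 5), 3.03-fold lower than in F/F Tat (log2 -1.60, 95% interval -1.70 to -1.50, adjusted p = 4.28e-15). This call sat at the edge of the fold threshold, and it was lost at log2 -1.58 without F/F Tat replicate 10 or 12 or ΔMye Tat replicate 19 or 21, while scaling moved it to -1.81. Against F/F PBS, Slpi in ΔMye Tat was 1.45-fold higher (log2 0.53, adjusted p = 4.40e-09), which did not reach the fold threshold.

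Stfa3 encodes a stefin A protein, an inhibitor of cysteine proteases such as the cathepsins. It lies at chr16:36450537-36455392 on the minus strand, in a cluster of stefin genes, and none of its 31-base sequences occurred in transcripts of another gene. It was measured at 6.23 to 17.8 TPM in F/F PBS (median 10.4) and at 21.8 to 39.0 TPM in F/F Tat (median 32.6). In the 5 ΔMye Tat libraries it was at 5.68, 8.89, 4.80, 4.59 and 4.45 TPM. All F/F Tat libraries were above all others, and the ΔMye Tat libraries overlapped the lower end of F/F PBS. The mean rose 2.83-fold with Tat, from 11.5 ± 4.15 to 32.4 ± 6.54 TPM (log2 1.54 ± 0.22 SE, adjusted p = 1.80e-06 in limma). The difference passed the adjusted p and missed the fold threshold by little. It was called without F/F PBS replicate 4 (log2 1.68), F/F PBS replicate 6 (1.63) or F/F Tat replicate 10 (1.65), and after scaling (2.17).

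In ΔMye Tat, Stfa3 was 5.71-fold lower than in F/F Tat (5.68 ± 1.86 TPM, n = 5, log2 -2.52, 95% interval -2.99 to -2.04, adjusted p = 2.55e-08 in limma). Slpi and Stfa3 were the 2 of the 9 genes called in this comparison, where 0.440% of all tested genes were called higher and 0.316% lower. By adjusted p alone, without the fold threshold, 3 of the 9 were lower (Lcn2, Slpi and Stfa3; 8.87% of all tested genes) and S100a8 was higher (38.8%). After median-ratio scaling the same 2 genes were called, where 0.258% of all tested genes were called higher and 0.603% lower. By adjusted p alone 3 of the 9 were then lower (18.8% of all tested genes) and 0 higher (16.4%). The groups did not overlap for 4 of the 9, against 36.6% of all tested genes, and the median log2 difference was -0.01 against 0.22 over all tested genes. Against F/F PBS, Stfa3 in ΔMye Tat was lower by adjusted p (log2 -0.97, adjusted p = 6.70e-04), but these groups overlapped and after scaling the difference no longer passed (log2 -0.56, adjusted p = 0.0352).

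**Figure D3:**
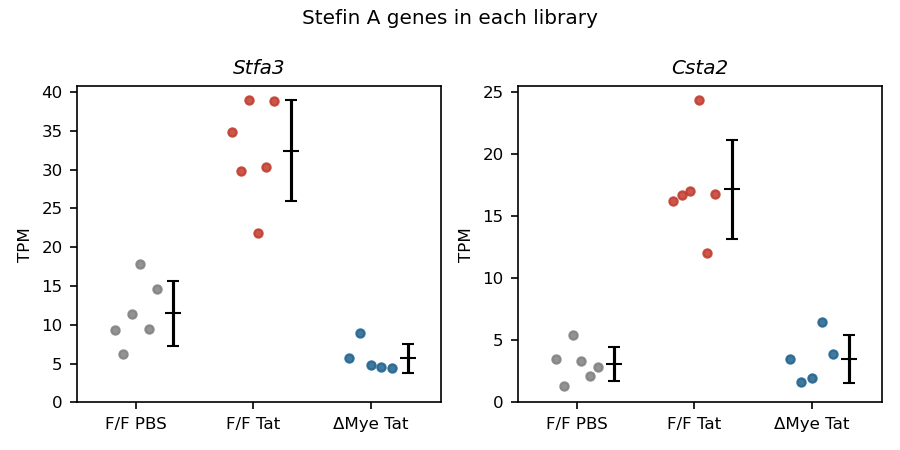
TPM of the stefin A genes Stfa3 and Csta2 in every library, with each group's mean and SD beside its points. For both genes the F/F Tat libraries (21.8 to 39.0 and 12.0 to 24.3 TPM) lay above all F/F PBS and ΔMye Tat libraries.

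Another stefin A gene, Csta2, was measured at 1.36 to 5.44 TPM in F/F PBS (median 3.10) and at 12.0 to 24.3 TPM in F/F Tat (median 16.8). In ΔMye Tat it was at 3.49, 1.65, 1.96, 6.44 and 3.94 TPM, within or next to the F/F PBS range. Csta2 was called higher with Tat (log2 2.52 ± 0.30 SE, adjusted p = 2.29e-07 in limma) and lower in ΔMye Tat than in F/F Tat (log2 -2.40 ± 0.32 SE, adjusted p = 3.72e-06), and ΔMye Tat and F/F PBS differed by a log2 of 0.12 (adjusted p = 0.733). The remaining stefin A genes in the table (Stfa1, Stfa2, Stfa2l1, Csta1 and Csta3) did not exceed 1.15 TPM in any library. No transcript was found under the symbol Csta2 in the reference annotation. Sequences that Csta2 may share with Stfa3 or other stefin genes were therefore not examined.

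Saa3, Ptx3 and Hp encode acute-phase proteins. All 3 passed the adjusted p with Tat, Saa3 and Ptx3 upward and Hp downward, and for all 3 the libraries of the 2 Tat groups overlapped. Saa3, serum amyloid A3, is the serum amyloid made mainly outside the liver. It lies at chr7:46711998-46715700 on the minus strand, and 7.44% of its 31-base sequences also occurred in transcripts of other genes. F/F PBS libraries gave 3194 to 4183 TPM (median 3824) and F/F Tat libraries 8741 to 9362 TPM (median 9090.0). Saa3 in ΔMye Tat was at 9740, 10185, 9283, 9746 and 10245 TPM. Both Tat groups were above F/F PBS without overlap, and they overlapped each other. The mean rose 2.38-fold with Tat, from 3816 ± 345 to 9078 ± 210 TPM (log2 1.26 ± 0.05 SE, adjusted p = 3.46e-15 in limma), under the fold threshold on TPM as deposited and over it after scaling (log2 1.89). ΔMye Tat (9840 ± 391 TPM) and F/F Tat differed by a log2 of 0.12 (95% interval 0.01 to 0.22, adjusted p = 0.0523), a difference whose sign turned after scaling (log2 -0.10, adjusted p = 0.255). Over the alternatives its adjusted p ran from 1.56e-05 (quantile normalization, log2 0.45) to 0.255, and it fell under 0.01 in 3 of them, the others being the fit of only the 2 Tat groups and the fit without F/F PBS replicate 2. Of the other serum amyloid A genes, Saa1, Saa2 and Saa4 did not exceed 1.74 TPM in any library.

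Ptx3 encodes the long pentraxin 3, a soluble pattern recognition protein that binds microbes and complement. It lies at chr3:66219910-66225805 on the plus strand. F/F PBS libraries gave 0.0772 to 0.254 TPM (median 0.124) and F/F Tat libraries 20.7 to 25.6 TPM (median 22.5). Ptx3 in ΔMye Tat was at 27.6, 25.6, 25.8, 25.8 and 23.8 TPM. The gene was near 0 without Tat, and the 2 Tat groups overlapped. The mean was 0.132 ± 0.0634 TPM without Tat and 22.6 ± 1.72 TPM with it, 171-fold higher. On the log2 scale the difference was 6.64 ± 0.13 SE with the pseudocount of 0.1 (adjusted p = 5.68e-20 in limma) and 4.38 with a pseudocount of 1, so its size depends on the pseudocount. ΔMye Tat (25.7 ± 1.35 TPM) and F/F Tat differed by a log2 of 0.19 (95% interval -0.09 to 0.46, adjusted p = 0.222), and by -0.02 after scaling. That interval takes its spread partly from the F/F PBS libraries, which lay near 0. In a limma fit of only the 2 Tat groups the adjusted p was 0.0142, still above 0.01. With quantile normalization it was 0.947 in limma.

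Hp encodes haptoglobin, which binds free haemoglobin, and it was the only one of the 9 genes that fell with Tat by adjusted p. It lies at chr8:109575128-109579172 on the minus strand. F/F PBS libraries gave 43.4 to 53.5 TPM (median 47.9) and F/F Tat libraries 16.2 to 23.6 TPM (median 18.3). Hp in ΔMye Tat was at 17.4, 16.4, 20.2, 19.4 and 20.3 TPM. Both Tat groups lay below every F/F PBS library and overlapped each other. The mean was 2.52-fold lower with Tat, 18.97 ± 2.55 against 47.8 ± 3.48 TPM (log2 -1.34 ± 0.08 SE, adjusted p = 4.20e-12 in limma). After scaling, the difference was -0.71 (adjusted p = 4.90e-07), so the direction held and the size fell. ΔMye Tat (18.8 ± 1.76 TPM) and F/F Tat differed by a log2 of -0.01 (95% interval -0.18 to 0.16, adjusted p = 0.910). Haemoglobin and other red cell transcripts, whose sum was at most 1.87 TPM in the F/F libraries, reached 7.94 to 14.3 TPM in ΔMye Tat, and their part in any difference of that group was not tested.

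S100a8 and S100a9 encode the subunits of calprotectin, a heterodimer that binds zinc and manganese, and the genes lie close together on chromosome 3 (S100a8 at chr3:90668978-90670035 on the plus strand, S100a9 at chr3:90692632-90695721 on the minus strand). S100a8 was measured at 49.9 to 58.2 TPM in F/F PBS (median 53.5) and at 61.7 to 75.8 TPM in F/F Tat (median 69.8). The 5 ΔMye Tat libraries gave 85.03, 101, 91.1, 85.4 and 94.7 TPM. The 3 groups did not overlap, and they stood in the order F/F PBS, F/F Tat and ΔMye Tat. The steps were small: the mean rose 1.27-fold with Tat in F/F macrophages (log2 0.35, adjusted p = 1.34e-05 in limma) and was 1.33-fold higher in ΔMye Tat than in F/F Tat (log2 0.41, adjusted p = 1.07e-05). After scaling the first step was 0.98 and the latter 0.20, with an adjusted p of 0.0309 that missed the threshold.

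S100a9 was measured at 0.491 to 2.04 TPM in F/F PBS (median 1.10) and at 0.267 to 1.82 TPM in F/F Tat (median 0.680). ΔMye Tat libraries gave 0.236, 0.954, 0.930, 0.527 and 0.932 TPM. The groups overlapped, and the SD was 45.0% to 68.6% of the mean within a group. With Tat the log2 difference was -0.41 (95% interval -1.33 to 0.50, adjusted p = 0.373 in limma), and its sign turned after scaling (0.14). The level of S100a8 was 28.3 to 108 times that of S100a9 without Tat, 39.2 to 284 times in F/F Tat and 98.0 to 361 times in ΔMye Tat. The log2 of this ratio, which scaling between libraries does not touch, was higher by 0.82 with Tat in F/F macrophages (exact permutation test, two-sided, p = 0.171, adjusted over 3 comparisons 0.256). Between the 2 Tat groups it differed by 0.53 (p = 0.377, adjusted 0.377, exact permutation test). From F/F PBS to ΔMye Tat it differed by 1.36 (p = 0.0346, adjusted 0.104, exact permutation test), which did not pass an adjusted threshold of 0.05.

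Camp encodes the precursor of cathelicidin, a membrane-damaging peptide of phagocytes. It lies at chr9:109847379-109849617 on the minus strand. F/F PBS libraries gave 0.554 to 2.72 TPM (median 1.62) and F/F Tat libraries 1.43 to 2.76 TPM (median 1.75). Those of ΔMye Tat gave 1.22, 3.55, 2.31, 2.89 and 1.58 TPM. The 3 groups overlapped. The log2 difference was 0.31 with Tat in F/F macrophages on TPM as deposited (95% interval -0.36 to 0.97, adjusted p = 0.362 in limma) and 0.23 between the 2 Tat groups (95% interval -0.46 to 0.93, adjusted p = 0.556), and both intervals reached close to a log2 of 1. After quantile normalization the Tat difference of Camp was 1.47 (adjusted p = 0.000386), still under the fold threshold, and after median-ratio scaling 0.89 (adjusted p = 0.0138).

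**Figure D4:**
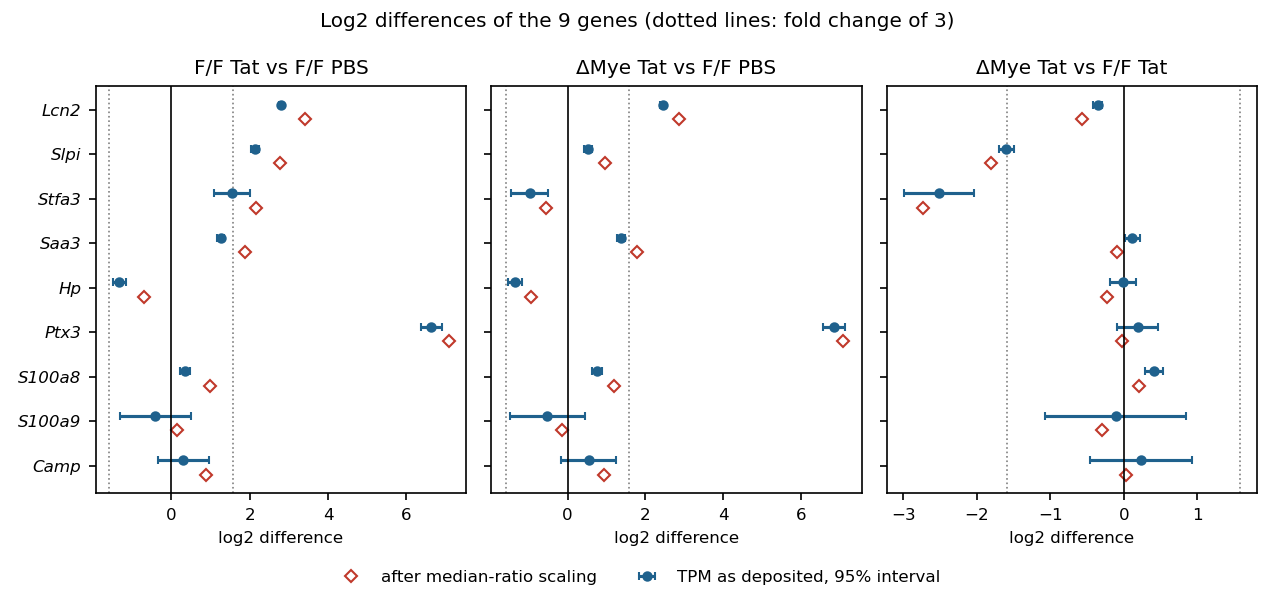
Log2 differences of the 9 genes in the 3 comparisons. Filled points with bars are TPM as deposited with the 95% interval from limma, open diamonds are the values after median-ratio scaling, and dotted lines mark a fold change of 3. Lcn2, Slpi and Ptx3 lay beyond the line with Tat in F/F macrophages (left panel), and Slpi and Stfa3 lay beyond it on the lower side between the 2 Tat groups (right panel).

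Set against F/F PBS, ΔMye Tat had 2 of the 9 genes called higher (Lcn2 and Ptx3; 4.38% of all tested genes) and 0 called lower (11.1%). After median-ratio scaling Saa3 was called higher too (log2 1.79, adjusted p = 8.78e-15 in limma), which made 3, where 6.41% of all tested genes were called higher and 6.27% lower. On TPM as deposited, by adjusted p alone, 5 were higher (17.5%) and 2 lower (58.8%). The groups did not overlap for 6 of the 9 (67.7% of all tested genes). The median log2 difference of the 9 was 0.54, against -0.43 over all tested genes. Without Ptx3, which passed the filter through its Tat-treated libraries alone, 1 of 8 was called higher and the median was again 0.54. Saa3 differed by a log2 of 1.37 (adjusted p = 3.21e-15 in limma), S100a8 by 0.76 (adjusted p = 6.77e-10) and Hp by -1.35 (adjusted p = 1.34e-11). Ptx3 differed by 6.83 (adjusted p = 1.33e-19). S100a9 (-0.52, adjusted p = 0.295) and Camp (0.54, adjusted p = 0.138) did not pass. Since F/F Tat and F/F PBS each enter 2 of the comparisons, the 3 sets of differences are not independent of each other.

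Several of the 9 genes are abundant in neutrophils, so the markers of that cell type were measured beside them. The sum of 18 neutrophil genes, which held none of the 9, was 95.3 to 108 TPM in F/F PBS and 224 to 253 TPM in F/F Tat, and ΔMye Tat lay at 202 to 232 TPM. Most of that sum with Tat came from Csf3r (means 54.9, 128 and 145 TPM) and Hdc (0.565, 96.3 and 56.6 TPM in the same order). Other genes of the list stood lower with Tat, Mmp8 with means of 15.9, 2.57 and 3.82 TPM and Padi4 with 15.2, 3.95 and 4.09 TPM. The granule genes Elane and Ngp and the neutrophil integrin gene Itgb2l were listed at 0 in every library, Mpo did not exceed 0.0574 TPM, and Ly6g did not exceed 1.28 TPM. Retnlg had means of 5.07, 0.671 and 0.298 TPM in the 3 groups. Fewer cells of a type and less RNA per cell cannot be told apart in such bulk samples.

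Other marker sums moved with the groups too. The 8 mesothelial genes summed to 5.31 to 7.59 TPM in F/F PBS, 2.82 to 4.42 in F/F Tat and 2.08 to 2.597 in ΔMye Tat. The 6 fibroblast genes summed to 28.0 to 37.7, 27.7 to 32.3 and 16.1 to 20.6 TPM. The 4 dendritic cell genes summed to 6.73 to 14.9, 41.3 to 46.1 and 22.4 to 26.8 TPM, nearly all of it Ccr7, while Flt3 and Zbtb46 did not exceed 1.19 TPM. The markers of eosinophils and mast cells (8 genes, 26.2 to 36.1, 23.2 to 31.6 and 16.7 to 23.8 TPM), T and NK cells (7 genes, 8.62 to 17.4, 7.26 to 8.60 and 11.01 to 13.99 TPM) and B cells (4 genes, 12.1 to 25.4, 10.9 to 14.5 and 8.20 to 12.6 TPM) stayed low. The part of these cells in the differences of Slpi, Stfa3 or the other members was not tested.

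Among 26 further acute-phase genes, 10 were tested, of which 6 were called higher with Tat (Serpina3g, Serpina3f, Cp, Cfb, Hamp and Tnfaip6) and 0 lower, with a median log2 of 2.12. Hamp, Tnfaip6 and Saa1 had no F/F PBS library at 1 TPM and passed the filter through Tat-treated libraries alone. Without these 3, 4 of 7 were called higher and the median was 1.77. Between ΔMye Tat and F/F Tat, 0 of the 10 were called, 2 were higher and 2 lower by adjusted p, and the median was -0.08. For this list and those that follow, the shares of all tested genes were 5.21% called higher and 19.4% called lower with Tat. Between the 2 Tat groups they were 0.440% and 0.316%, and by adjusted p alone 38.8% higher and 8.87% lower. Hamp, which encodes the iron hormone hepcidin, was listed at a mean of 0.0666 TPM in F/F PBS and reached 20.96 ± 1.38 TPM with Tat in F/F macrophages and 19.9 ± 2.86 TPM in the deleted ones. Serpina3g, a serpin that inhibits cysteine proteases, went from 3.36 ± 0.661 to 141 ± 7.88 TPM with Tat (log2 5.37, adjusted p = 6.72e-21 in limma) and was higher still in ΔMye Tat (240 ± 9.69 TPM, log2 0.77, adjusted p = 1.15e-06). Its neighbour Serpina3f went from 1.31 to 44.8 TPM and to 63.0 TPM in ΔMye Tat (log2 0.49, adjusted p = 4.39e-05). Cfb, complement factor B, went from 174 ± 2.22 to 969 ± 23.1 TPM (log2 2.47, adjusted p = 6.95e-24) and stood at 921 ± 40.0 TPM in ΔMye Tat. Part of the sequence of these transcripts is not unique to them: 33.7% of the 31-base sequences of Hamp, 28.4% of Serpina3g, 27.3% of Serpina3f and 75.5% of Cfb also occurred in other genes.

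Of 21 further genes listed under antimicrobial granule and secreted proteins, 8 were tested. With Tat, 2 were called higher (Acod1 and Zbp1), neither of which encodes a granule or secreted protein. Another 3 were called lower (Pglyrp1, Lyz2 and Rnase4, with 0 after scaling), and the median log2 was -0.82. Acod1, the enzyme that makes itaconate, went from 282 ± 12.5 to 3029 ± 22.4 TPM (log2 3.43, adjusted p = 9.21e-26 in limma) and stood at 2877 ± 86.9 TPM in ΔMye Tat. Zbp1, a sensor of nucleic acids, went from 237 ± 4.23 to 1005 ± 30.6 TPM (log2 2.08, adjusted p = 2.37e-23) and stood at 858 ± 20.4 TPM in ΔMye Tat. Lyz2, lysozyme 2 and the site of the Cre insertion, was at 22382 ± 463, 6993 ± 149 and 4333 ± 178 TPM in the 3 groups. Lyz1 was at 126, 95.3 and 194 TPM, and the sign of its Tat difference turned after scaling (log2 -0.41 to 0.22). Of the 31-base sequences, 32.8% of Lyz2 and 34.2% of Lyz1 occurred in other genes, each mainly in the other. Chil3, a chitinase-like lectin, went from 319 to 239 TPM with Tat (log2 -0.42), a difference whose sign turned after scaling (0.22). For Chil3, 41.5% of the 31-base sequences also occurred in other genes. Between ΔMye Tat and F/F Tat, Pglyrp1 alone was called (higher), at means of at most 1.69 TPM in every group.

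Of 14 other S100 family genes, 7 were tested, and 4 were called lower with Tat (S100a1, S100a4, S100a6 and S100a13) with a median log2 of -1.62, but 0 were called after scaling. S100a4, a calcium-binding protein linked to cell motility, went from 216 ± 20.3 to 55.9 ± 4.13 TPM (log2 -1.95, adjusted p = 1.71e-15 in limma; -1.32 after scaling). S100a6 went from 404 ± 38.5 to 131 ± 11.8 TPM (log2 -1.62, adjusted p = 4.33e-15; -0.99 after scaling). S100a1 went from 158 to 40.5 TPM (log2 -1.96; -1.33 after scaling) and S100a13 from 58.6 to 16.4 TPM (log2 -1.83; -1.20 after scaling). Between ΔMye Tat and F/F Tat, 0 of the 7 were called. By adjusted p, 5 were higher (38.8% of all tested genes) and 1 lower (8.87%). For S100a4 about 49.2% of the 31-base sequences also occurred in another gene model.

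Of 20 further stefins, cystatins and WFDC inhibitors, 17 were in the table and 7 were tested. With Tat, 4 were called higher (Csta2, Cst7, Wfdc18 and Wfdc21) and 0 lower, with a median log2 of 1.69, and in ΔMye Tat against F/F Tat Csta2 alone was called (lower). Cst7, cystatin F, which inhibits cathepsins in immune cells, went from 2.32 ± 0.894 to 27.9 ± 1.75 TPM (log2 3.60, adjusted p = 3.42e-14 in limma) and stood at 30.3 ± 2.07 TPM in ΔMye Tat. Wfdc17, which shares the WFDC fold with Slpi, went from 1576 ± 69.1 to 2786 ± 64.2 TPM (log2 0.82, adjusted p = 1.08e-14). In ΔMye Tat it stood at 2343 ± 123 TPM (log2 -0.25 against F/F Tat, adjusted p = 6.45e-06). Wfdc18 went from 3.62 to 11.4 TPM with Tat and stood at 7.68 TPM in ΔMye Tat (log2 -0.56, adjusted p = 0.0182), which did not pass. After scaling, that difference passed the adjusted p but not the fold threshold (log2 -0.77, adjusted p = 0.00242 in limma).

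Of 21 receptors and partners of the 9 proteins, 14 were tested. With Tat, 3 were called higher (Fpr1, Fpr2 and Tnfaip6) and 1 lower (Scarb1), with a median log2 of -0.40 (2 higher, 1 lower and -0.46 without Tnfaip6), and 0 were called between ΔMye Tat and F/F Tat. Fpr2, a formyl peptide receptor that also binds serum amyloid A, went from 126 ± 10.3 to 528 ± 16.7 TPM (log2 2.07, adjusted p = 4.53e-19 in limma) and stood at 563 ± 22.6 TPM in ΔMye Tat. For Fpr2, 43.0% of the 31-base sequences also occurred in other genes. Fpr1 went from 79.6 to 312 TPM and stood at 208 TPM in ΔMye Tat (log2 -0.58 against F/F Tat, adjusted p = 9.56e-10). Scarb1, the HDL receptor, went from 40.1 ± 2.10 to 6.07 ± 0.798 TPM (log2 -2.71, adjusted p = 7.99e-17) and stood at 10.7 ± 1.15 TPM in ΔMye Tat. Tlr2 went from 172 to 509 TPM (log2 1.57), just under the fold threshold. After scaling, Tlr2 was over it (log2 2.20), and 4 genes of the list were called higher. Cd36 went from 524 to 243 TPM with Tat and stood at 381 TPM in ΔMye Tat.

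Of 19 regulators of the acute-phase response, 17 were tested. With Tat, 7 were called higher (Nfkbiz, Stat3, Nfkb1, Il6, Il1b, Tnf and Socs3) and 2 lower (Cebpa and Il6ra), with a median log2 of 0.65. Cebpe passed the filter through F/F PBS libraries alone. Without it, 7 of 16 were called higher and 2 lower, and the median was 0.79. Il6 went from 9.55 ± 1.24 to 3393 ± 180 TPM (log2 8.47, adjusted p = 3.41e-26 in limma) and stood at 1244 ± 26.8 TPM in ΔMye Tat. That difference between the genotypes was under the fold threshold on TPM as deposited (log2 -1.45, adjusted p = 1.46e-12) and over it after scaling (-1.66), and 0 of the 17 were called without scaling. Il1b went from 50.1 to 8208 TPM and stood at 7278 TPM in ΔMye Tat, and Tnf went from 127 to 1826 TPM and stood at 2267 TPM. Cebpa, which encodes C/EBPα, went from 174 ± 10.7 to 7.77 ± 0.603 TPM (log2 -4.47, adjusted p = 2.66e-23) and stood at 19.2 ± 0.623 TPM in ΔMye Tat (log2 1.29 against F/F Tat, adjusted p = 5.05e-13).

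For each of the 9 genes, the tested genes with the most similar profile over the 17 libraries were found by the root mean square (RMS) difference of log2(TPM + 0.1), each profile centred on its own mean. The libraries share their group structure, so these are descriptions. Closest to Lcn2 were Igtp (0.0791) and Ifi47 (0.0803), both interferon-inducible GTPase genes. Igtp was at 40.9, 255 and 210.2 TPM in F/F PBS, F/F Tat and ΔMye Tat. Closest to Slpi were Mt2 (0.151), metallothionein 2, at 102, 395 and 129 TPM, and Aldh1b1 (0.209), at 14.6, 76.3 and 29.5 TPM. Closest to Saa3 were Psme2 (0.0688), a proteasome activator subunit, at 707, 1718 and 1732 TPM, and 1110038F14Rik (0.101).

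Closest to Ptx3 were Tnfsf15 (RMS difference 0.237), a TNF family ligand, at 0.531, 60.1 and 68.0 TPM, and Il1b (0.367). Closest to Hp were Arpc5l (0.130) and Cd151 (0.137), a tetraspanin gene, and closest to S100a8 were Ifnar2 (0.107), an interferon receptor subunit, and Spp1 (0.112), osteopontin. The noisier genes had looser matches: Stfa3 was nearest to Rilpl1 (0.513) and Ctla2b (0.557), Camp to Ppp1r7 (0.424) and Trim13 (0.487), and S100a9 to Blk (0.609) and Commd8 (0.615). For comparison, the SD of the member's own profile was 3.22 for Ptx3, 1.27 for Lcn2, 1.10 for Stfa3 and 0.32 for S100a8. It was 0.793 for S100a9 and 0.593 for Camp, so their nearest genes left much of the member's own variation unmatched.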

How the data were processed

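Expression was measured by RNA-Seq in 17 libraries, which the labels place in 3 groups by genotype and treatment and the study describes as biological replicates. A further allele shared by the mice of all 3 groups is not reported here. The authors ran Salmon with the Ensembl annotation of GRCm38 (mm10 per the labels) and deposited TPM by gene symbol in 1 table. No scaling between libraries is stated, and the listed TPM of a library do not reach the full TPM total. Their own tests (edgeR, TMM) were not repeated, because the deposited TPM hold no counts. The depth and the counting error are unknown, so precision comes from the spread between libraries alone.

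Rows were matched to the 9 members by symbol. A row entered the tests when 5 or more libraries had 1 TPM or more, which left 10451. Its log2 values, taken after adding 0.1 TPM, were fitted in limma (version 3.58.1, R version 4.3.3; lmFit, contrasts.fit and a trended eBayes) with the 3 groups in a single model and 14 residual degrees of freedom. Fold changes on this scale are understated for low genes. Adjusted p (Benjamini-Hochberg) is over all tested genes, and a call needed both an adjusted p below 0.01 and a difference above 3-fold. Ratios of means are of TPM without the pseudocount. The S100a8 to S100a9 ratio was compared with exact permutation tests (scipy 1.17.1). The procedure was tested on simulated data in which a small share of the genes differed, up and down in equal number. It was not tested on a shift of most genes, as seen here with Tat. Alternatives were pseudocounts of 0.5 and 1, other filters, scaling by median ratios, quantile normalization, calls by adjusted p alone, pairwise fits, robust weights, the exact Wilcoxon test and each library left out in turn.

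Coordinates are from the GENCODE annotation of GRCm38, the share of 31-base sequences from its transcripts, and promoters from RefSeq (GRCm38.p6). The members, the 6 gene lists and the 9 marker lists were chosen with earlier results of these data known. Genes named from a list were the 4 with the largest absolute log2 difference for Tat and the 2 for genotype among those whose mean reached 10 TPM in a group, besides genes named as called. For each member the 2 nearest profiles were named. Csta2 was followed through every library after its values were seen. The labels give 3 days between thioglycollate and collection, and the methods state a longer interval.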

Additional observations from a re-analysis of the deposited data

Results flagged for a closer look

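Dixon's test was applied to the 9 genes in each of the 3 groups (27 groups of 5 or 6 libraries), and 2 single libraries stood apart from the others of their group. Chance alone flags about 5% of such groups. Stfa3 in ΔMye Tat replicate 20 was at 8.89 TPM, with the nearest other library of the group at 5.68 TPM (gap over range 0.722, against a critical value of 0.71). Without that library Stfa3 differed between the 2 Tat groups by a log2 of -2.69, against -2.52 with it, and ΔMye Tat and F/F PBS differed by -1.14, against -0.97. Ptx3 in F/F PBS replicate 1 was at 0.254 TPM, with the nearest other library at 0.128 TPM (gap over range 0.712, against 0.625), and it remained far below every Tat-treated library.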

How the results depend on the processing

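There were 708 combinations of a member's log2 difference with an alternative setting, the S100a8 to S100a9 ratio not counted. Of these, 672 kept direction and side of the threshold, 18 gained a call, 7 lost it and 11 changed sign. No paired analysis was possible because the replicate numbers in the labels are not shared between groups. The sign changes were all of differences with an adjusted p above 0.01 on TPM as deposited. With scaling they were S100a9 for Tat (0.14), and Saa3 (-0.10) and Ptx3 (-0.023) between the genotypes. With quantile normalization they were S100a9 for Tat (0.80) and in ΔMye Tat against F/F PBS (0.32), and Camp between the genotypes (-0.070). Leaving out single libraries moved Hp between the genotypes over -0.054 to 0.054 (above 0 without F/F Tat replicate 11 or 12 or ΔMye Tat replicate 19 or 20) and S100a9 over -0.34 to 0.18 (above 0 without ΔMye Tat replicate 19).

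Calls among the 9 genes for Tat went from 3 to 5 with scaling and 7 with no fold threshold, and ranged from 3 to 4 on leaving out single libraries. Between the genotypes they went from 2 to 1 with quantile normalization (Slpi, log2 -1.58), to 4 with no fold threshold and to 0 with the exact Wilcoxon test, and ranged from 1 to 2 on leaving out a library. In that comparison limma gave 4982 genes under an adjusted p of 0.01, and the Wilcoxon test gave 83 genes with an unadjusted p under 0.05 and a fold over 3. Its smallest adjusted p there was 0.0118, which Slpi and Stfa3 had. Against F/F PBS, ΔMye Tat went from 2 to 7 with no fold threshold. Over all tested genes the calls for Tat (2576) became 1625 with a pseudocount of 1, 1693 with quantile normalization (867 higher, 826 lower) and 8842 with no fold threshold. Those between the genotypes (79) became 38 and 30 with pseudocounts of 0.5 and 1, 43 with a filter of 5 TPM, 4982 with no fold threshold and 0 with the Wilcoxon test. Those against F/F PBS (1623) became 948 with a pseudocount of 1, 1054 with the 5 TPM filter and 7977 with no fold threshold.

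Calls over the 6 lists went from 31 to 57 (Tat), from 2 to 39 (genotypes) and from 20 to 53 (ΔMye Tat against F/F PBS) with no fold threshold. The lists held 10, 8, 7, 7, 14 and 17 tested genes, with Tnfaip6 listed more than once. Over all tested genes the shares went from 24.6% to 84.6%, from 0.756% to 47.7% and from 15.5% to 76.3% in the same order. List calls between the genotypes were 1 with pseudocounts of 0.5 or 1 or the 5 TPM filter, 0 with the Wilcoxon test and 1 to 2 on leaving out a library. The S100a8 to S100a9 log2 ratio of ΔMye Tat over F/F PBS was 1.13 and 1.03 with pseudocounts of 0.5 and 1 (adjusted p = 0.0130 for both, exact permutation test), and 1.03 to 1.54 on leaving out a library, passing at 0.0476 without F/F PBS replicate 1. The 5 TPM filter left out S100a9 and Camp. The causes were not tested.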
